A study of Homo sapiens with 12 samples.

Results

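The comparison described here set an ALDH1B1 knockout clone of SW480 cells that expressed EGFP against the parental SW480 line kept in DMSO. SW480 is a human colorectal adenocarcinoma line, and EGFP is a green fluorescent protein. The comparison takes 6 of the 12 libraries of the series, with 3 biological replicates of each group per the series description. Another 3 libraries, from the same clone made to express ALDH1B1, were set beside it to describe which differences moved back towards the parental level and which moved further from it. A further 3 libraries, from parental cells given an ALDH1B1-selective inhibitor at 2 µM for 24 h, served as an alternative baseline. The parental cells of the main comparison had DMSO, the solvent control, for 24 h, and no treatment is named for the clone. All cells were grown in RPMI medium with serum. The knockout rests on 1 clone, the EGFP and ALDH1B1 groups both come from the clone labelled as an ALDH1B1 knockout, and no source used here names the promoter of the constructs. Loss of ALDH1B1, descent from a single cell, the EGFP construct and the DMSO treatment therefore cannot be told apart in this comparison. The EGFP and ALDH1B1 groups differ in their constructs and may have been grown apart, which cannot be told apart from ALDH1B1 itself. Statements below on change with ALDH1B1 describe the difference between these clone groups.

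ALDH1B1 is a mitochondrial aldehyde dehydrogenase, one of a family of enzymes that oxidise aldehydes to carboxylic acids, and it is studied in the colon as a marker of stem-like and tumour cells. Colonic epithelial cells carry brush border proteins such as villin (VIL1), which bundles actin in microvilli, under transcription factors that include CDX2 and HNF4A. Vimentin (VIM), an intermediate filament protein, is typical of mesenchymal cells and of epithelial cells that have taken on mesenchymal features.

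Polyadenylated RNA was counted per gene, and levels are given as CPM, read counts scaled to a common library size, which compare a gene between groups and not 1 gene with another. Libraries held between 32617089 and 39018926 reads. The comparison used 2 deposited tables, and a gene is listed in a table when it has at least 2 reads over that table's 6 libraries. They share 26814 genes, of which 18609 passed the filter on low counts and were tested with edgeR's quasi-likelihood test in 1 fit of 9 libraries. Replicates differed by more than sampling noise, and 2 libraries stood apart from their groups. EGFP replicate 3 differed from replicates 1 and 2 of its group with a chi-square per degree of freedom of 10.8 and 16.1, where replicates 1 and 2 differed by 4.00. For DMSO replicate 2 these values were 10.6 and 7.04, against 3.72. Mitochondrially encoded genes took 4.53% to 5.12% of reads in the parental libraries, 3.59% to 5.02% in the EGFP libraries and 3.33% to 3.59% in the ALDH1B1 libraries.

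ALDH1B1 itself (chr9:38392664-38398661, plus strand, hg38) was at 46.1, 53.9 and 50.8 CPM in the parental libraries. It was at 18.3, 18.7 and 17.7 CPM in the EGFP libraries and at 103, 96.7 and 99.6 CPM in the ALDH1B1 libraries. The 3 groups did not overlap, and ALDH1B1 transcript was lowest in the EGFP clone without being absent from it. The log2 fold change was -1.46 (SE 0.064, adjusted p = 3.88e-14) for EGFP minus parental and 2.45 (SE 0.064, adjusted p = 3.49e-15) for ALDH1B1 minus EGFP. With the construct the level was 0.99 above the parental one on the log2 scale. Read counts per gene do not show whether the remaining transcript encodes an intact enzyme.

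The EGFP clone and the parental line differed in most of the transcriptome. Of 18609 tested genes, 14243 (76.5%) passed an adjusted p of 0.05, with 6970 (37.5%) higher and 7273 (39.1%) lower in the EGFP clone. Changes of at least 2-fold were called for 6810 genes (36.6%), 3523 (18.9%) higher and 3287 (17.7%) lower, and 144 rose and 183 fell by at least 64-fold. The 3 values of each group did not overlap for 14437 genes (77.6%). Between the clone groups 2777 genes (14.9%) were called, 1551 higher with ALDH1B1 (8.33%) and 1226 lower (6.59%). Of these, 187 (1.00%) changed by at least 2-fold, 22 upwards (0.118%) and 165 downwards (0.887%). The median absolute log2 fold change over all tested genes was 0.71 for EGFP minus parental and 0.15 for ALDH1B1 minus EGFP. The comparison of the ALDH1B1-expressing clone with the same parental libraries called 14236 genes (76.5%), with a median absolute log2 fold change of 0.72. With the parental libraries that received the inhibitor as the baseline, a choice added after the data were seen, 14085 of 18567 tested genes were called, and 13031 of them had also been called in the same direction against DMSO. Without EGFP replicate 3 and DMSO replicate 2 together, also added after the data were seen, 14153 genes were called.

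**Figure D1:**
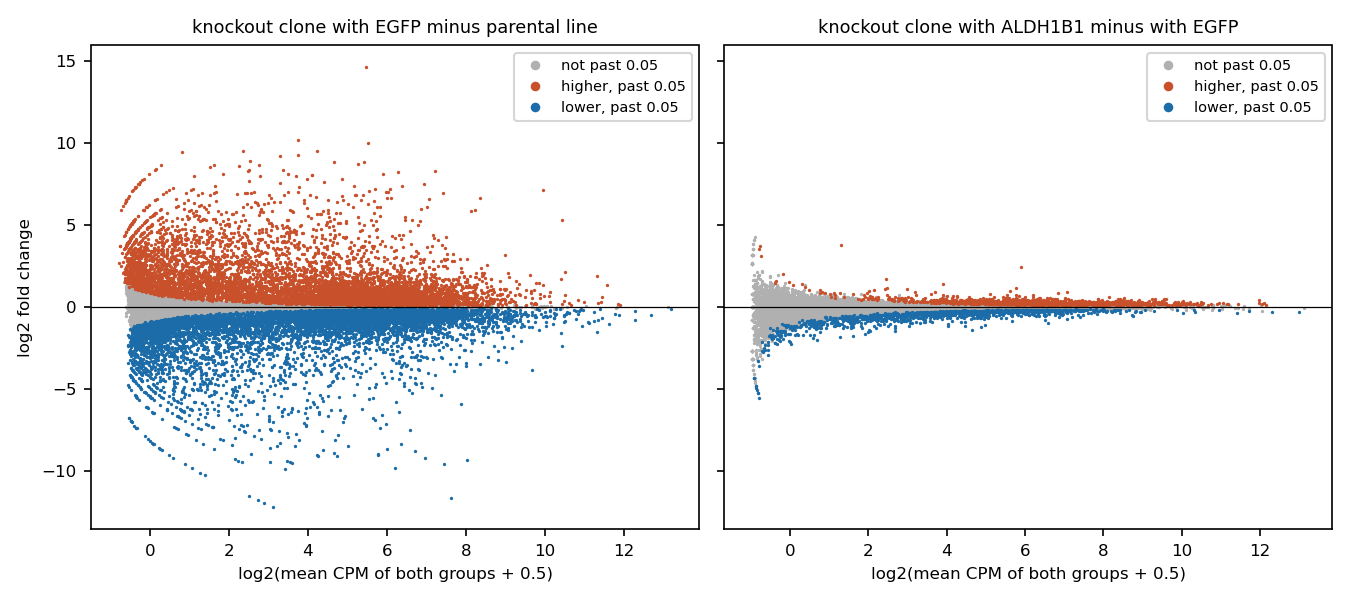
Log2 fold change of each tested gene (vertical axis) against its mean level in the groups compared (horizontal axis, log2 of mean CPM plus 0.5), on the left for the EGFP clone minus the parental line and on the right for ALDH1B1 minus EGFP within the clone. Coloured points passed an adjusted p of 0.05, which 14243 of 18609 genes did on the left and 2777 on the right.

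The keratins KRT8 and KRT18 did not pass the test between clone and parental line, while VIL1 was almost lost. Of 18 tested keratin genes, 10 fell and 4 rose, with a median log2 fold change of -0.64. Among all tested genes 39.1% fell and 37.5% rose, the background for this and every later list. KRT8 (a simple-epithelium keratin) was at 3522, 3776 and 3643 CPM in the parental and at 3654, 3740 and 3664 CPM in the EGFP libraries, a log2 fold change of 0.02 that did not pass the test (adjusted p = 0.75). Its partner KRT18 had a log2 fold change of 0.08 (adjusted p = 0.13) and KRT19 of -0.16 (adjusted p = 0.0040). CDX2, an intestinal transcription factor, was at 24.3, 24.8 and 27.6 CPM in the parental and at 60.9, 60.2 and 60.8 CPM in the EGFP libraries, a rise of 1.25 on the log2 scale (adjusted p = 1.0e-12). EPCAM, an epithelial adhesion molecule, and CDH1 (E-cadherin) were both lower in all 3 EGFP libraries, with log2 fold changes of -2.69 and -2.82.

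VIL1 (chr2:218419092-218453295, plus strand) was at 356, 342 and 349 CPM in the parental libraries and at 0.429, 0.528 and 0.445 CPM in the EGFP libraries. In the ALDH1B1 libraries it was at 0.216, 0.0523 and 0.163 CPM. The parental and clone values did not come near each other, and the log2 fold change was -9.54 (SE 0.10, adjusted p = 3.57e-23). The clone with ALDH1B1 was a further 1.71 lower, a step at low levels that rests on 15 reads over its group against 50 in the EGFP group. VIM (chr10:17228259-17237593, plus strand) was at 14.2, 16.5 and 13.6 CPM in the parental, 272, 281 and 281 CPM in the EGFP and 303, 312 and 326 CPM in the ALDH1B1 libraries. Every clone library was above every parental one, and the log2 fold change was 4.24 (SE 0.066, adjusted p = 3.54e-21). About 24% of VIM exon sequence is shared with other genes, VIM-AS1 for the longest stretch, and 44% of that of VIL1, with USP37 for the longest. The clone thus expressed KRT8, KRT18 and CDX2 with little of the villin RNA found in the parental line. The other epithelial markers named above, EPCAM, CDH1 and KRT19, were lower in the clone. The tables hold no genotype, so the descent of the clone from the parental line was not tested.

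Markers of other cell types moved in different directions. Of 10 fibroblast markers 4 were tested and all 4 were higher in the EGFP clone, at a summed 7.10 to 9.17 CPM in the parental and 52.4 to 52.8 CPM in the EGFP libraries. The 4 were FBLN1, COL1A1 and COL1A2, proteins of the extracellular matrix, and the growth factor receptor PDGFRB, and FBLN1 had the highest level of them in the EGFP clone (26.0 CPM on average). COL3A1, DCN, THY1 and FAP fell under the filter on low counts. LUM, at 7.71, 6.39 and 7.26 CPM in the parental line, was listed in the parental table only, and PDGFRA, at no more than 0.134 CPM, in the knockout table only. LUM thus went the other way but could not be tested, so the 4 tested markers do not give the direction of all 10. The 4 leukocyte markers tested of 12 summed to 6.17 to 7.27 CPM in the parental and 3.04 to 3.70 CPM in the EGFP libraries, with 2 of them lower and 1 higher. CD3D and CD3E were under the filter, and PTPRC was listed in the parental table only, at no more than 0.392 CPM. Of 8 endothelial markers 2 were tested, EGFL7 was higher in the EGFP clone and VWF was not called. PECAM1 and KDR were under the filter, and CDH5 was listed in the parental table only. The part of other cells in the differences below was not tested.

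The largest rises were in genes with almost no reads in the parental line. CADPS, which primes dense-core vesicles for release, had 0 reads in the 3 parental libraries and was at 87.6, 87.2 and 88.1 CPM in the EGFP libraries. That is at least 3124-fold higher, taking 3 reads over the parental group as the floor. GGT5, a gamma-glutamyl transferase, had 2 reads in the parental group and was at 27.0, 25.4 and 25.6 CPM in the EGFP clone, a ratio of 1393 (95% exact interval 385 to 11500, counting error only). MARCHF4, a ubiquitin ligase, went from at most 0.157 CPM to between 88.7 and 93.8 CPM. SPTLC3, a subunit of serine palmitoyltransferase, AMOTL1, a partner of YAP at cell junctions, SEZ6, known from neurons, TMEM100 and the chemokine CXCL14 completed the 8 largest rises. Their EGFP values ran from 9.86 CPM for TMEM100 to 52.2 CPM for CXCL14, against at most 0.253 CPM in any parental library. All 8 had adjusted p of at most 2.0e-15. All 8 were also above every parental library in the clone with ALDH1B1, where CADPS was at 75.1, 73.8 and 68.5 CPM.

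The largest falls mirrored this pattern with genes that fell to a few reads or none. CHL1, a neural cell adhesion molecule, was at 15.2, 18.2 and 15.8 CPM in the parental line and had 0 reads in the EGFP libraries, at least 586-fold lower. TOX3, an HMG-box protein, and A1CF, the RNA-binding cofactor of apolipoprotein B mRNA editing, also had 0 reads in the EGFP libraries and were at least 443-fold and 372-fold lower. CLRN3 had 2 reads in the EGFP group against 2178 in the parental group, a ratio of 1092 (95% exact interval 302 to 9020, counting error only). PCDH19, a protocadherin, was at 444, 344 and 393 CPM in the parental and at most 0.161 CPM in the EGFP libraries. KLRC2, a receptor gene known from natural killer cells that lies in a cluster of near-identical genes and whose reads may be split among them, was at 144, 157 and 138 CPM against at most 0.215 CPM.

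**Figure D2:**
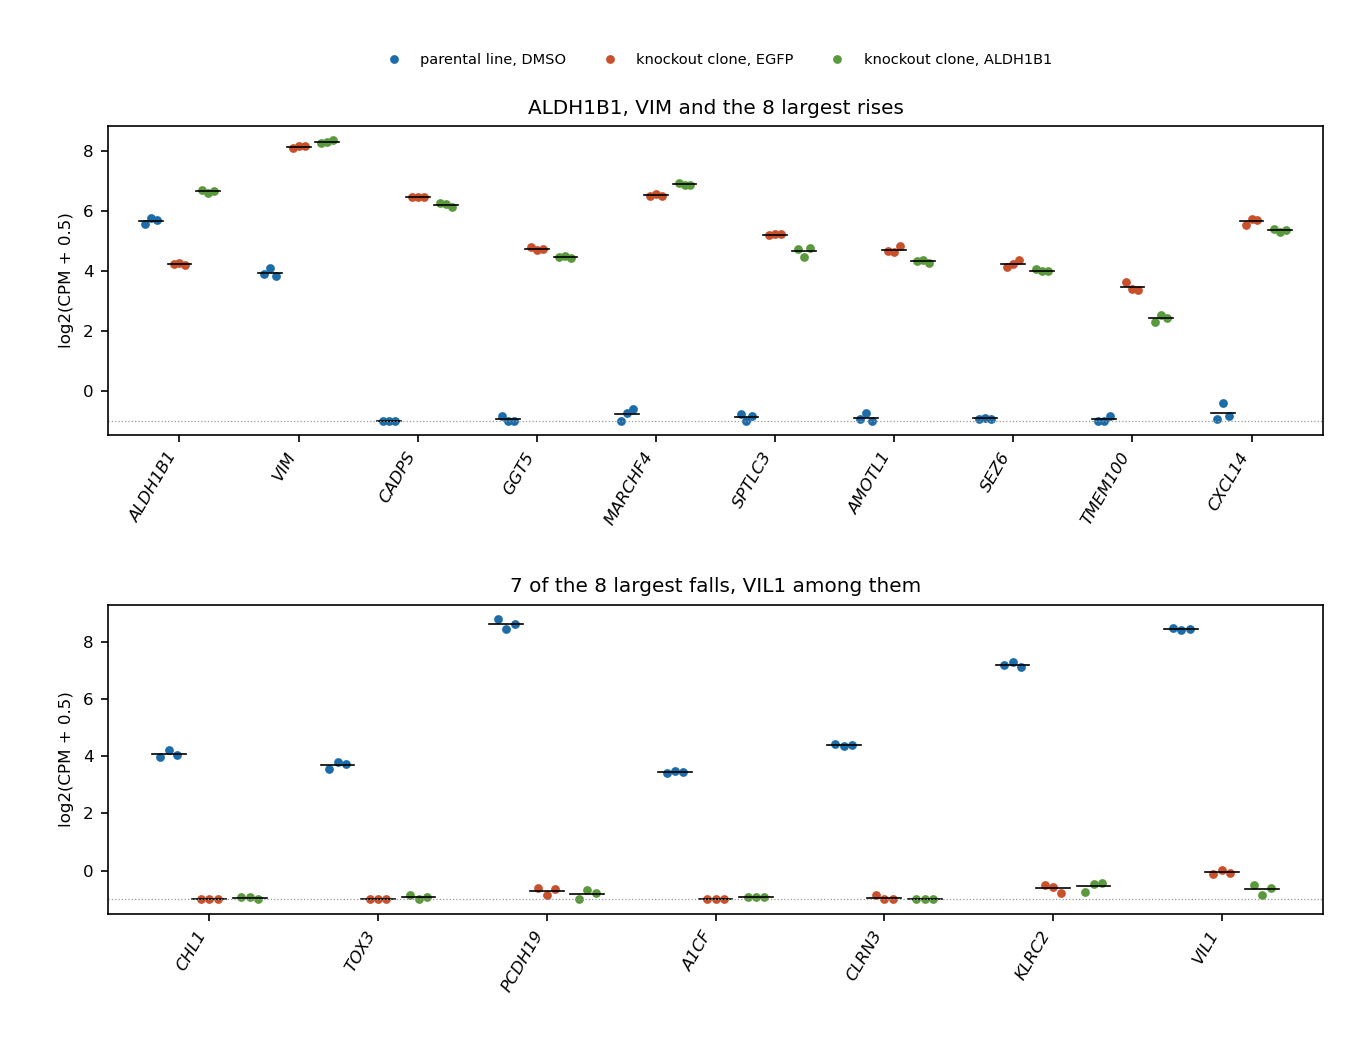
Level of each gene in every library (points) and the group mean (black bars), as log2 of CPM plus 0.5, for ALDH1B1, VIM and the 8 largest rises (top) and 7 of the 8 largest falls (bottom). The dotted line is the value of 0 reads. Parental and clone libraries are far apart for each gene except ALDH1B1, where the 2 clone groups lie on either side of the parental line.

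Counting all genes rather than the extremes, 52 tested genes had a mean of at least 5 CPM in the parental line and under 0.1 CPM in the EGFP clone, and 30 had the reverse. In the ALDH1B1-expressing clone, 46 of the 52 were also under 0.1 CPM and none was above 0.186 CPM, while 20 of the 30 were still at 5 CPM or more and none was under 1.93 CPM. These limits were chosen after the values were seen. Genes listed in 1 table only could not be tested. Among them 22 had a mean of at least 5 CPM in the parental line and were not listed for the clone, led by NKX2-5, a cardiac and spleen transcription factor (864, 820 and 981 reads), ESRRG, an orphan nuclear receptor, the sodium channel gene SCN3A, TFF3, a peptide of goblet cells (700, 559 and 765 reads), and BCHE, butyrylcholinesterase. The reverse held for 7 genes, led by AC104126.1, an antisense transcript, and ESM1, a secreted proteoglycan with 1235, 1107 and 1083 reads in the EGFP libraries, followed by AC114296.1, ACTL6B, a subunit of the neuronal BAF complex, and RF00019.

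Promoter windows of 3 genes with large differences between the groups are shown to set their sequence beside the expression values, with CG pairs in capitals. They run 5′ to 3′ from 250 bases before to 50 after the RefSeq start (GRCh38.p14). CADPS (chr3:62875367-62875666, minus strand) and CHGA (chr14:92922900-92923199, plus strand; chromogranin A, a dense-core granule protein described below) were low in the parental line, and A1CF (chr10:50885578-50885877, minus strand) was at 0 reads in the EGFP clone.
CADPS: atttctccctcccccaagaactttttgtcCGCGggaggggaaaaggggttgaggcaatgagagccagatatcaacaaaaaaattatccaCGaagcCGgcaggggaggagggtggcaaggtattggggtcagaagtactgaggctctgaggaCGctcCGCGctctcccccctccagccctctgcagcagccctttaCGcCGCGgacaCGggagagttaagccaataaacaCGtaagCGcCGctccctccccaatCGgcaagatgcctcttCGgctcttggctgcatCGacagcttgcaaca
CHGA: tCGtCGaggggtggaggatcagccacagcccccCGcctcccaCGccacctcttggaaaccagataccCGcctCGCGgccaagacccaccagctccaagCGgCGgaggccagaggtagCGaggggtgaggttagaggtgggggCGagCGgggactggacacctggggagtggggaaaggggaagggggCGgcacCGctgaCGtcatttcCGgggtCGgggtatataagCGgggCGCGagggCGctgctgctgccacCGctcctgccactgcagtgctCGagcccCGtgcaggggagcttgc
A1CF: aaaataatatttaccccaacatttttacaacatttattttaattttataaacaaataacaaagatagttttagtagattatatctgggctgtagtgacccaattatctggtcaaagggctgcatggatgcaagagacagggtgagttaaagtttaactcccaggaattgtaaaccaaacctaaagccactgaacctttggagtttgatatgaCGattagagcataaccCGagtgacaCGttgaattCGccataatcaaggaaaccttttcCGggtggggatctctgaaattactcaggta
The windows hold 17, 24 and 5 CG pairs in that order, against a median of 14 and quartiles of 3 and 28 over 27305 RefSeq windows of the same length. At most 5 CG pairs were found in 34.4% of all windows. The letters TATAAA occur on either strand in 12% of all windows, 2 times in that of A1CF and in neither of the others. The 3 genes were chosen after their values were seen, so nothing is drawn from these counts.

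Genes of the intestinal surface and of epithelial junctions were mostly lower in the EGFP clone. Of 23 tested brush border and enterocyte genes, 17 fell and 4 rose, with a median log2 fold change of -2.52 where that of all tested genes was -0.04. Over all tested genes 39.1% fell and 37.5% rose. HNF4A, a master regulator of enterocyte genes, fell from 94.6, 99.8 and 95.5 CPM to 2.17, 2.17 and 1.87 CPM (log2 fold change -5.54, SE 0.088), and fell by a further 0.66 with ALDH1B1. No clone library came near a parental one for HNF4A. Of 33 junction genes, 21 fell and 7 rose, with a median of -1.01. CDH17 (LI-cadherin) fell 69.8-fold to between 0.390 and 0.440 CPM, and ESRP1, a splicing factor that sets epithelial isoforms, fell 17.6-fold from 279, 285 and 278 CPM to 15.2, 16.3 and 16.5 CPM. Of 18 keratin genes 10 fell and 4 rose, with KRT17, KRT83 and KRT6B at log2 fold changes of -4.02, -3.33 and -3.13. KRT6B and KRT83 have close relatives whose reads may be shared with them.

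Secretory genes moved in both directions. Of 16 tested, 8 fell and 4 rose. MUC13, a membrane mucin, fell from 24.7, 26.9 and 25.4 CPM to at most 0.499 CPM (log2 fold change -6.32). The chromogranins of neuroendocrine granules were among the rises, CHGA from 0.512, 0.569 and 0.444 CPM to 165, 158 and 141 CPM (log2 fold change 8.25, SE 0.11, adjusted p = 8.59e-22) and CHGB from at most 0.791 CPM to 101, 93.6 and 81.4 CPM (log2 fold change 7.09). Because of these 2 genes the list's summed level was 229 to 275 CPM in the EGFP libraries and 49.8 to 55.9 CPM in the parental ones, although its median log2 fold change was -1.36. With ALDH1B1, CHGA was at 176, 172 and 155 CPM and no tested member of the list was called against EGFP. With inhibitor-treated parental cells as the baseline the list's median was -0.48, with 15 members tested.

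Mesenchymal and matrix genes, integrins and YAP target genes were mostly higher. Of 34 mesenchymal genes 25 rose and 8 fell, with a median of 1.44, of 18 integrins 12 rose and 6 fell, with a median of 1.13, and of 21 YAP targets 16 rose and 3 fell, with a median of 1.73. SPARC, a matrix glycoprotein, was at 0.135, 0.190 and 0.183 CPM in the parental and 19.8, 18.0 and 22.0 CPM in the EGFP libraries (log2 fold change 6.86, SE 0.17). FN1 (fibronectin) had a log2 fold change of 4.05 and ZEB1, a repressor of E-cadherin, of 1.74. Against this direction, COL4A1, a basement membrane collagen, went from 100, 120 and 106 CPM to at most 0.362 CPM (log2 fold change -8.96) and SNAI2, another repressor of E-cadherin, fell by 4.42. CDH2 (N-cadherin) was listed in the parental table only, at no more than 0.0783 CPM in any library.

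CRIM1, a membrane protein that binds BMPs, had the second largest rise of the YAP list after AMOTL1. It was at 3.80, 3.07 and 3.76 CPM in the parental, 233, 231 and 223 CPM in the EGFP and 183, 184 and 180 CPM in the ALDH1B1 libraries, so the 3 groups did not overlap. ITGB5, an integrin subunit for vitronectin, went from 96.0, 107 and 96.9 CPM to 914, 947 and 886 CPM, while ITGB7 fell by 6.49 and ITGB6 fell by 4.03 on the log2 scale. TGFB2, a ligand of the TGF-beta family, rose from at most 0.679 CPM to 14.9, 15.0 and 16.7 CPM. Of the 39 TGF-beta, activin and BMP genes 20 rose and 13 fell, and INHBB, a subunit of activin B, fell from 437, 476 and 468 CPM to 8.02, 8.19 and 6.40 CPM.

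Ligands of the EGF receptor were far lower in the clone. EREG (epiregulin) was at 232, 270 and 242 CPM in the parental and at 0.483, 0.470 and 0.306 CPM in the EGFP libraries (log2 fold change -9.20, SE 0.14, adjusted p = 3.27e-21). AREG (amphiregulin) went from 218, 197 and 216 CPM to 0.349, 0.381 and 0.696 CPM, and HBEGF from 64.7, 65.3 and 66.5 CPM to 4.10, 3.58 and 3.01 CPM. None of the 3 was called between the clone groups, and both clone groups lay far under the parental one. Of 13 tested ligands and receptors 9 fell and 3 rose, with a median of -2.51. Among 29 genes that answer to or restrain ERK signalling, 20 fell and 7 rose, with a median of -0.50. PHLDA1 fell from 944, 940 and 940 CPM to 91.7, 92.8 and 90.8 CPM, and the log2 fold changes were -3.10 for ATF3 and -2.24 for DUSP4, a phosphatase of ERK.

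Target genes of ATF4, which respond to amino acid shortage and endoplasmic reticulum stress, were nearly all lower. Of 31 tested members 29 fell and 1, VLDLR, rose, with a median of -1.45, where 39.1% of all tested genes fell. TRIB3, a pseudokinase, was at 1463, 1547 and 1550 CPM in the parental, 106, 114 and 98.2 CPM in the EGFP and 93.2, 100 and 96.0 CPM in the ALDH1B1 libraries. FGF21, a secreted stress hormone, went from 22.7 ± 2.95 CPM (SD, n = 3) to at most 0.381 CPM. ALDH1L2, the mitochondrial formyltetrahydrofolate dehydrogenase and a member of the same enzyme family as ALDH1B1, fell from 46.3, 54.8 and 50.4 CPM to 2.95, 2.96 and 3.42 CPM. With ALDH1B1 the list's median was -1.58 against the parental line. In this list 3 genes moved back and 5 further, beside 1333 and 1061 of all 18609 tested genes.

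Wnt and Notch genes moved in both directions. Of 25 Wnt feedback and target genes 13 fell and 9 rose, with PROX1, a homeobox factor, at 279, 274 and 269 CPM in the parental, 8.58, 8.74 and 9.69 CPM in the EGFP and 5.55, 4.42 and 5.17 CPM in the ALDH1B1 libraries. TDGF1 (Cripto) fell by 3.76 and TNFRSF19 rose by 2.57 on the log2 scale. With ALDH1B1, 9 of these 25 genes moved further from the parental level and 2 back. Among all 18609 tested genes, 1061 moved further and 1333 back. The 9 became 4 without ALDH1B1 replicate 2, 5 without ALDH1B1 replicate 3 and 5 without EGFP replicate 2. Of 24 Notch genes 15 fell and 6 rose. LFNG, a glycosyltransferase that modifies Notch, went from 227, 225 and 230 CPM to 7.81, 8.39 and 7.10 CPM. Of 19 stem and tuft cell genes 9 fell and 7 rose, and DCLK1, a kinase that marks tuft cells, was at 13.9, 22.2 and 17.0 CPM in the parental, 330, 334 and 360 CPM in the EGFP and 433, 439 and 430 CPM in the ALDH1B1 libraries.

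HOX genes, which record position along the body axis, differed by cluster. All 9 tested HOXB genes rose, with a median of 2.16, and HOXB8 went from 17.3, 17.0 and 17.3 CPM to 277, 291 and 312 CPM. Of 11 HOXA genes 7 fell and 2 rose, with a median of -0.76. Of 9 HOXC genes 7 rose and 1 fell, with a median of 0.44, and of 6 HOXD genes 4 rose and 1 fell, with a median of 1.71. HOXB genes lie on chromosome 17, whose median shift is given below, and the split by cluster was made after the values were seen. Of 25 clustered protocadherins 16 fell and 4 rose, PCDHGC3 among the rises at a log2 fold change of 2.94, although 40% of its exon sequence is shared with other genes. Of 5 cancer-testis antigen genes tested 2 fell, 1 rose and 2 were not called. MAGEC2 was among the falls, from 29.4, 30.4 and 29.9 CPM to at most 0.323 CPM.

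Genes of antigen presentation and the interferon response included some very large rises. IFITM1, an interferon-induced membrane protein, was at 0.135, 0.411 and 0.0261 CPM in the parental and 77.0, 81.9 and 67.3 CPM in the EGFP libraries (log2 fold change 8.70), and IFITM3 was at 2.26, 4.62 and 4.20 CPM against 255, 235 and 270 CPM. Reads may be split among the IFITM genes, which are near-identical, with 32% and 21% of exon sequence shared with other genes. IFIH1 (MDA5), a sensor of double-stranded RNA, fell from 27.0, 27.1 and 27.6 CPM to 3.03, 2.85 and 2.84 CPM. The 36 interferon-induced genes as a whole had 16 rises and 14 falls. Of 18 MHC class I genes 11 rose and 3 fell, with HLA-B at a log2 fold change of 1.78 and the immunoproteasome subunits PSMB8 and PSMB9 at 1.72 and 1.41.

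Among enzymes of aldehyde and retinoid handling, single genes changed strongly while the lists were mixed. Of 17 aldehyde dehydrogenases 9 fell and 7 rose, ALDH1B1 among the falls. Over all tested genes 39.1% fell and 37.5% rose. ALDH3A1, a corneal and stomach form, rose by 2.72 and ALDH3B1 by 1.59. Of 18 retinoid genes 11 fell and 7 rose. CRABP2, which carries retinoic acid in the cell, went from 19.6, 20.1 and 19.8 CPM to 252, 261 and 269 CPM, and DHRS3, a retinal reductase, fell by 2.30. Of 16 aldo-keto and carbonyl reductase genes 8 fell and 4 rose, with AKR1C3 at 39.8, 41.6 and 38.9 CPM against at most 0.278 CPM. AKR1C3 has close relatives in the same gene cluster. CBR4 fell by 1.65 and CBR1 rose by 1.34.

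Targets of NRF2, the regulator of the antioxidant response, gave opposite extremes. NQO1, a quinone reductase, rose from 23.6, 24.6 and 25.2 CPM to 249, 244 and 253 CPM, while GPX2, a glutathione peroxidase of the gut, went from 115, 109 and 111 CPM to at most 0.734 CPM and MGST1 fell by 3.85. The list of 24 had 11 rises and 9 falls, beside 37.5% higher and 39.1% lower over all tested genes. Its median of -0.04 turned positive without EGFP replicate 3 (0.07), without DMSO replicate 3 (0.0049) and without both libraries that stood apart (0.08). Of 24 p53 targets 11 rose and 10 fell, with log2 fold changes of 2.72 for FAS, -3.61 for GADD45A and -2.67 for SESN2. That list's median of 0.14 was -0.08 against inhibitor-treated parental cells. Of 36 hypoxia and glycolysis genes 17 rose and 17 fell, among them VEGFA, down from 195, 166 and 185 CPM to 21.6, 21.7 and 22.4 CPM, HK2, with a log2 fold change of -2.15, and NDRG1, with one of 2.15.

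Some sterol and transporter genes moved partly back with ALDH1B1, and some transporters moved further. Among the cholesterol genes 4 moved back and none further, and among the ABC transporters 4 moved back and 5 further. The background over all 18609 tested genes was 1333 moved back and 1061 further. Of 25 cholesterol synthesis genes 15 rose and 1 fell, with a median of 0.36. INSIG1, which retains the sterol sensor in the endoplasmic reticulum, was at 14.7, 10.9 and 12.9 CPM in the parental, 77.9, 81.0 and 79.4 CPM in the EGFP and 56.6, 55.8 and 59.8 CPM in the ALDH1B1 libraries. STARD4, a sterol carrier, was at 55.8, 44.5 and 46.4 CPM, then 208, 206 and 193 CPM, then 130, 135 and 139 CPM. For both genes the ALDH1B1 libraries lay between the other groups without overlap. Of 30 ABC transporter genes 15 rose and 14 fell, and the drug efflux pump ABCB1 went from 194, 184 and 190 CPM to 22.9, 21.5 and 24.2 CPM and on to 15.2, 16.0 and 18.1 CPM with ALDH1B1. Its neighbour ABCB4 rose by 3.56 and fell by 0.52 with ALDH1B1, and ABCA3 fell by 4.10.

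Genes of the cell cycle were mostly higher in the EGFP clone, and some were higher again with ALDH1B1. Against EGFP, 29 of the 52 G1/S genes and 18 of the 49 G2/M genes were called higher with ALDH1B1 and none lower. Over all tested genes 8.33% were called higher and 6.59% lower. Of 52 G1/S and DNA replication genes 38 rose and 6 fell, with a median of 0.62, and of 49 G2/M genes 34 rose and 9 fell, with a median of 0.37. MCM4, a subunit of the replicative helicase, was at 148, 155 and 149 CPM in the parental, 478, 496 and 521 CPM in the EGFP and 562, 579 and 569 CPM in the ALDH1B1 libraries, and its second rise was not called without ALDH1B1 replicate 2 or EGFP replicate 1 (adjusted p = 0.057 and 0.061). CDK2 rose by 1.86 and CCNE2, its cyclin, by 2.65, with 37% of CCNE2 exon sequence shared with other genes. DLGAP5, SMC4 and KIF20A, which act in mitosis, rose by 1.42, 1.34 and 1.29. With ALDH1B1, 23 of the G1/S genes moved further from the parental level and 3 back. For the G2/M genes 15 moved further and none back. Among all 18609 tested genes, 1061 moved further and 1333 back. Leaving out a clone library lowered these counts. The 23 became 12 without ALDH1B1 replicate 2 and 13 without EGFP replicate 1. The 15 became 8 without ALDH1B1 replicate 1, 9 without ALDH1B1 replicate 2, 9 without EGFP replicate 1 and 8 without EGFP replicate 2, and they were 24, with 4 moved back, without both libraries that stood apart.

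Ribosomal protein and respiratory chain genes showed the reverse, lower in the EGFP clone and higher with ALDH1B1. Of 79 cytosolic ribosomal protein genes 65 fell and 9 rose, with a median of -0.55, and 39 were moved back and 6 further. Of 75 nuclear respiratory chain genes 46 fell and 16 rose, with a median of -0.32, and 29 were moved back and 10 further. Among all 18609 tested genes, 1333 moved back and 1061 further. RPS21 was at 753, 782 and 791 CPM in the parental, 286, 296 and 310 CPM in the EGFP and 466, 436 and 402 CPM in the ALDH1B1 libraries. UQCRQ, a subunit of complex III, was at 176, 183 and 185 CPM, then 52.9, 57.7 and 57.4 CPM, then 69.4, 68.6 and 65.9 CPM. RPL22 fell by 1.30 and was not called between the clone groups, and NDUFA9, a subunit of complex I, fell by 1.26 and moved back by 0.63. The 39 ribosomal genes moved back became 24 and 23, and the 29 respiratory chain genes became 18 and 17, without ALDH1B1 replicate 1 and without ALDH1B1 replicate 2.

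These lists hold short genes, such as RPS21 (1023 nt) and UQCRQ (1472 nt), and long ones, such as RPS29 (9845 nt) and NDUFA9 (10391 nt). The shift from parental to EGFP differed with gene length, though not steadily in 1 direction. The 403 genes shorter than 800 nt had a median log2 fold change of -0.19, the 3912 genes from 3000 to 5000 nt one of 0.01, and the 1618 genes over 10000 nt one of -0.11. No such medians were made for ALDH1B1 minus EGFP. After a smooth length trend was removed from each library, the medians were -0.54 for ribosomal and -0.34 for respiratory chain genes. With inhibitor-treated parental cells as the baseline the respiratory chain median was -0.13, with 37 falls and 19 genes moved back, and the ribosomal median was -0.40. Of the 13 mitochondrially encoded genes 8 fell and 3 rose. MT-ND4 was at 8158, 7218 and 7845 CPM in the parental, 5352, 4530 and 6809 CPM in the EGFP and 4654, 4349 and 4610 CPM in the ALDH1B1 libraries, so the EGFP libraries spread widely, with replicate 3 the highest. The fall of MT-ND4 between the clone groups was not called without EGFP replicate 3 (adjusted p = 0.17), nor without EGFP replicate 1 or any single ALDH1B1 library (adjusted p from 0.064 to 0.15). MT-ND3 and MT-ND4L had log2 fold changes of -1.05 and -0.51 against the parental line, and that of MT-ND3 was -0.15 and not called against inhibitor-treated parental cells.

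**Figure D3:**
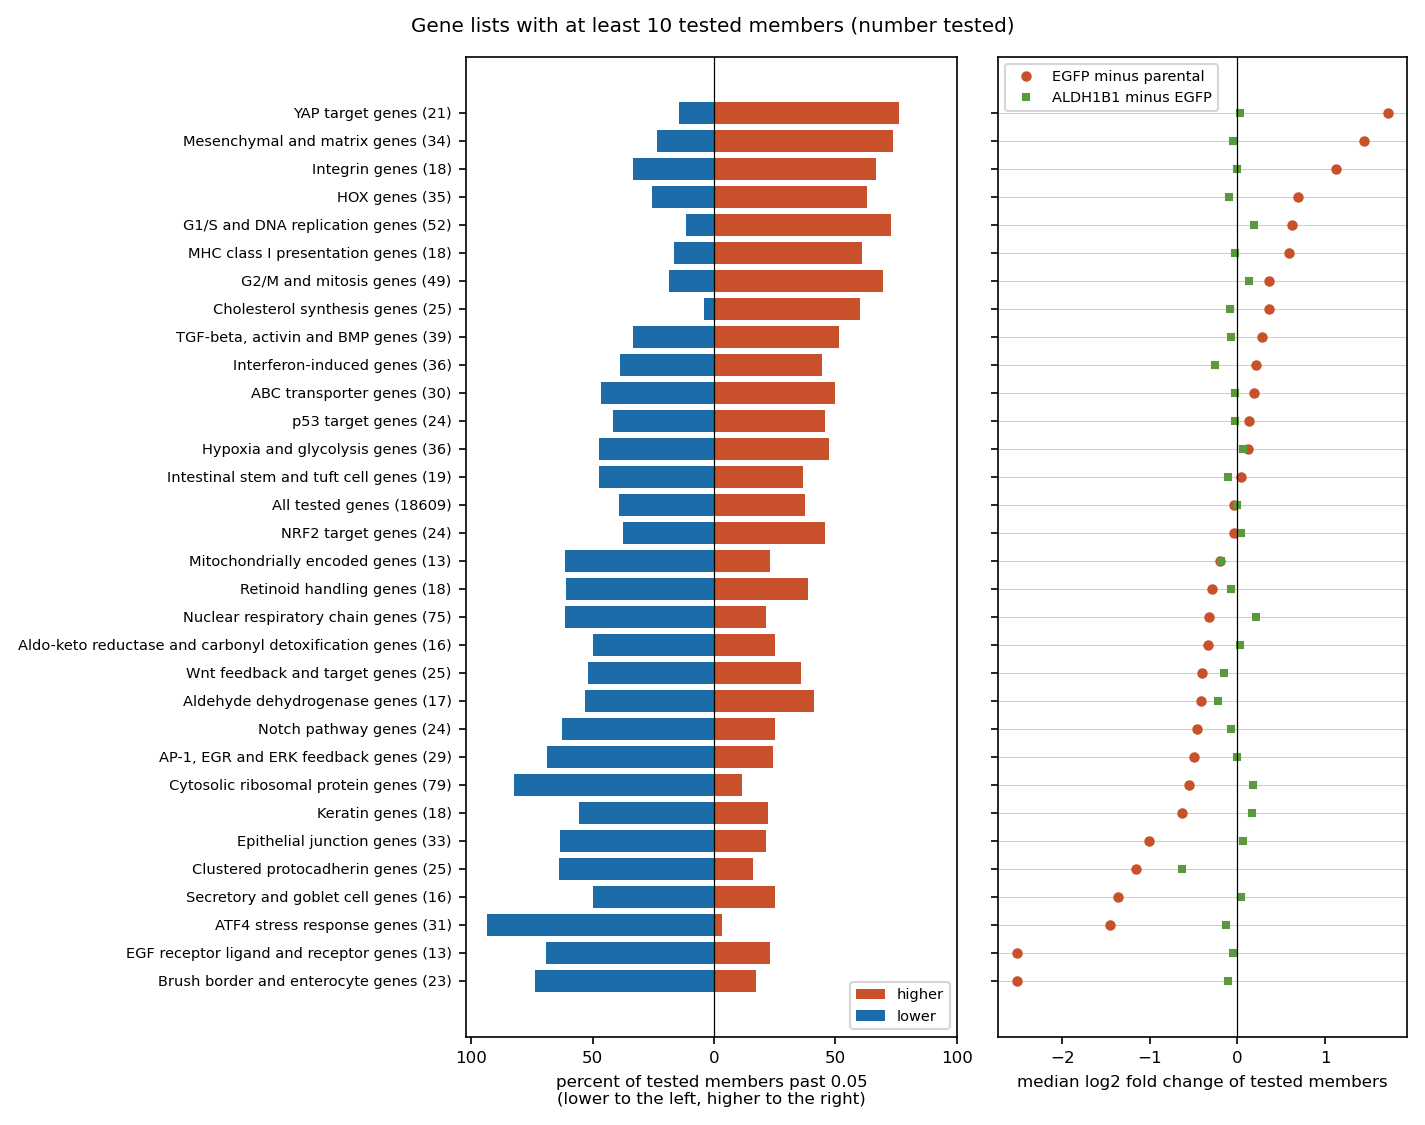
Share of tested members of each gene list that were called lower (left of 0) or higher (right of 0) in the EGFP clone than in the parental line (left panel), and the median log2 fold change of the list for EGFP minus parental (circles) and ALDH1B1 minus EGFP (squares) (right panel). The numbers tested stand in brackets, and the row for all 18609 tested genes gives the background. The medians for EGFP minus parental run from -2.52 for brush border genes to 1.73 for YAP target genes among the lists drawn, which are those with at least 10 tested members, and the squares lie nearer 0 than the circles in most lists.

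Part of the difference was spread along whole chromosomes. Over genes with a mean of at least 1 CPM, the median log2 fold change was -0.85 on chromosome 18 (195 genes, 144 lower and 28 higher) and 0.62 on chromosome 13 (264 genes, 48 lower and 183 higher), where the median over all 14626 such genes was -0.02. In that set of 14626 genes 41.7% were called lower and 41.0% higher. It was 0.57 on chromosome 3, 0.45 on chromosome 17, 0.36 on chromosome 9 and 0.32 on chromosome 14, and it was -0.37 on chromosome 21 and -0.33 on chromosome 15. Taken 1 library at a time, the EGFP libraries gave -0.77, -0.73 and -0.76 on chromosome 18 and 0.58, 0.57 and 0.59 on chromosome 13. The ALDH1B1 libraries gave -0.77, -0.70 and -0.68, and 0.55, 0.57 and 0.59. Each parental library was within 0.06 of the mean of the others on both chromosomes. The 2 clone groups were alike on the nuclear chromosomes, where the median of ALDH1B1 minus EGFP was between -0.05 and 0.05.

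Within chromosomes the shift changed along the sequence. In 280 windows of 50 neighbouring genes the median ran from -1.08 to 1.06 and was over 0.5 in 38 windows and under -0.5 in 31. The lowest window lay on chromosome 18 between GALNT1 and ATP8B1, where 46 of 50 genes fell, and the window at the start of chromosome 1, from WASH7P to ATAD3A, was next at -1.07 (45 of 50). The highest windows lay on chromosome 3, from CCDC14 to MBD4 at 1.06 (43 of 50 rose) and from NMRAL2P to PIGX at 1.06 (39 of 50). Genome-wide, 41.7% of the 14626 genes with a mean of at least 1 CPM fell and 41.0% rose. No window had a median of more than 0.14 in size for ALDH1B1 minus EGFP. The files used here hold no measurement of DNA. Several genes above lie on these chromosomes, among them COL4A1, DCLK1 and TNFRSF19 on chromosome 13 and HOXB8 and TMEM100 on chromosome 17. They were named for the size of their changes, so nothing is drawn from setting them beside the chromosome medians. The part of the chromosome shift in their changes was not tested.

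**Figure D4:**
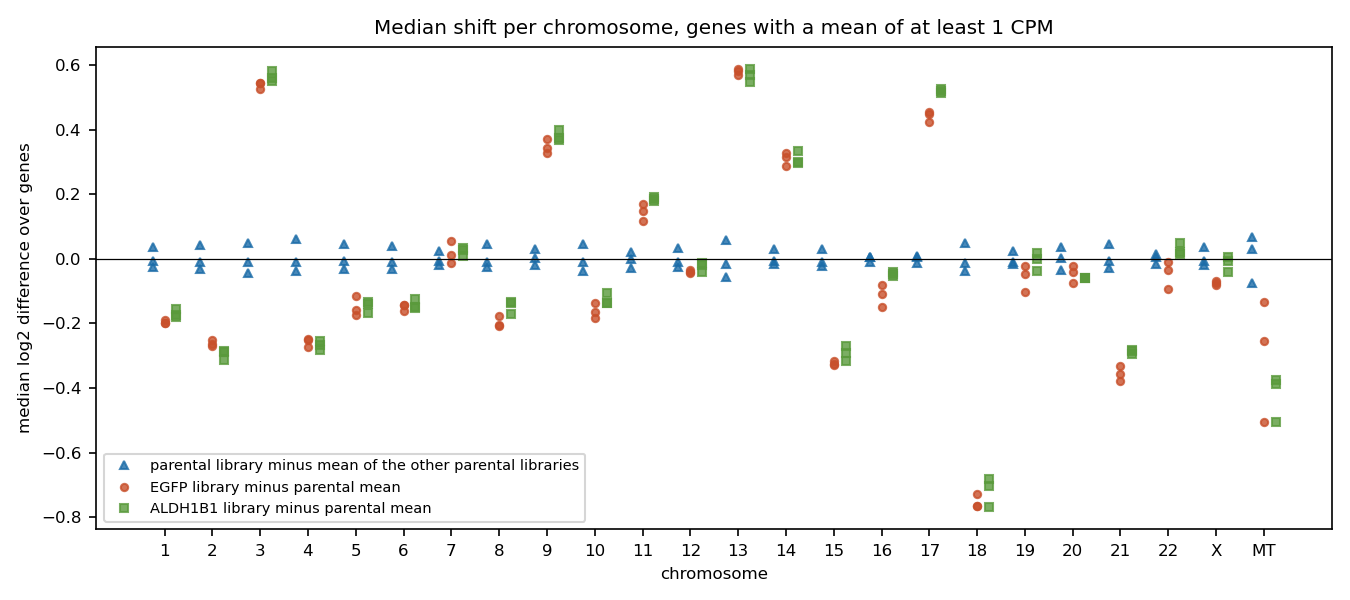
Median log2 difference over the genes of each chromosome (horizontal axis), for each parental library against the mean of the other parental libraries (triangles), each EGFP library (circles) and each ALDH1B1 library (squares) against the parental mean. Both clone groups sit near -0.75 on chromosome 18 and above 0.5 on chromosomes 3 and 13, while the parental libraries stay within 0.08 of 0.

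Most differences from the parental line were not called between the clone groups. Of the 14243 genes called between the EGFP clone and the parental line, 11849 were not called between the clone groups, 1333 moved back towards the parental level and 1061 moved further from it. The contrasts share the EGFP libraries, so a chance deviation in those libraries shifts both and adds to the genes that count as moved back, and the counts are a description. Of the 1333 moved back, 974 stayed short of the parental level, 316 were level with it by the test and 43 went beyond. The typical step was small, with a median absolute log2 change of 0.31 for genes moved back, whose EGFP shift had a median of 0.87, and of 0.27 against 0.77 for those moved further. Among the 6810 genes changed at least 2-fold, 593 moved back, 412 moved further and 5805 were not called. Of the 593, 53 moved back by at least 50% of their log2 shift. The numbers depend on single libraries. The 1333 genes became 743 without ALDH1B1 replicate 1, 668 without ALDH1B1 replicate 2 and 831 without EGFP replicate 1, and the 1061 became 555, 502 and 598.

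Raised genes that moved back were led by the pregnancy-specific glycoproteins, placental members of the CEA family in 1 cluster of chromosome 19. All 7 tested PSG genes rose, with a median log2 fold change of 6.23, and 6 moved back. Their summed level in the parental libraries was only 1.33 to 1.65 CPM. A gene with so few parental reads can pass the filter on low counts through the clone libraries alone. It can then only be called higher, so nothing is drawn from the shared direction. PSG5 was at 0.216, 0.474 and 0.313 CPM in the parental, 36.6, 32.8 and 36.6 CPM in the EGFP and 14.7, 12.6 and 13.6 CPM in the ALDH1B1 libraries. PSG1 was at 0.863, 0.474 and 0.731 CPM, then 37.8, 37.2 and 45.8 CPM, then 16.7, 16.1 and 19.4 CPM. Both stayed far above the parental level, and reads may be split among the near-identical PSG genes. EDN3 (endothelin 3) was at 1.02, 1.36 and 1.15 CPM, then 41.9, 44.9 and 40.5 CPM, then 20.2, 19.4 and 19.6 CPM. OLR1, a receptor for oxidised LDL, had a log2 fold change of 8.10 against the parental line and of -1.05 with ALDH1B1, and TMEM100 had one of -1.12 with ALDH1B1. QPRT, an enzyme of NAD synthesis, came nearest to its parental level among the 6 raised genes, at 5.90, 6.58 and 6.11 CPM, then 32.9, 28.9 and 28.0 CPM, then 12.1, 13.6 and 14.4 CPM.

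Apart from ALDH1B1, which went beyond its parental level, the lowered genes that the naming rule picked among those that moved back were ATP5ME, NDUFB8, RPS29, JTB and KRT15. ATP5ME, a subunit of ATP synthase, was at 21.8, 20.1 and 22.1 CPM in the parental, 9.60, 5.84 and 8.30 CPM in the EGFP and 24.1, 21.8 and 16.9 CPM in the ALDH1B1 libraries, and was level with the parental line by the test (log2 difference -0.03). NDUFB8, a subunit of complex I, was at 6.82, 7.78 and 7.47 CPM, then 3.59, 2.96 and 2.78 CPM, then 6.41, 6.04 and 7.48 CPM. Against inhibitor-treated parental cells neither was called for EGFP minus parental, with log2 fold changes of -0.13 for ATP5ME and 0.02 for NDUFB8. RPS29 moved back by 0.95 and JTB by 0.90. ATP5ME, NDUFB8 and JTB share 62%, 48% and 63% of their exon sequence with other genes, so reads may belong to those genes. KRT15, a basal keratin, was between 10.4 and 12.4 CPM in the parental libraries, then at 1.64, 2.02 and 1.81 CPM, then 3.24, 3.79 and 2.67 CPM, short of the parental level.

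Genes that moved further were found in both directions. S100A2, a calcium-binding protein of squamous and stressed epithelium, was at 15.9, 20.7 and 17.6 CPM in the parental, 94.3, 89.6 and 58.2 CPM in the EGFP and 158, 155 and 132 CPM in the ALDH1B1 libraries, with EGFP replicate 3 the lowest of its group. MYEOV was at 13.1, 15.4 and 16.5 CPM, then 110, 117 and 110 CPM, then 161, 160 and 155 CPM. IQCJ-SCHIP1 and PARL, a mitochondrial rhomboid protease, rose by 1.66 and 0.48 and again by 0.58 and 0.65, with 46% and 48% of their exon sequence shared with other genes. Of the lowered genes, FAM84A went from 30.1, 25.8 and 27.5 CPM to 1.18, 1.79 and 1.73 CPM and then 0.555, 0.340 and 0.544 CPM. BMP5, a ligand of the BMP family, had log2 fold changes of -5.29 against the parental line and -1.44 with ALDH1B1, and AC099792.1 had -7.03 and -3.28. The further falls of these 2 genes are at low levels. That of BMP5 was not called without ALDH1B1 replicate 2 or 3 (adjusted p = 0.075 and 0.080), and that of AC099792.1 not without ALDH1B1 replicate 1 or 3 or EGFP replicate 2 or 3 (adjusted p from 0.053 to 0.15).

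**Figure D5:**
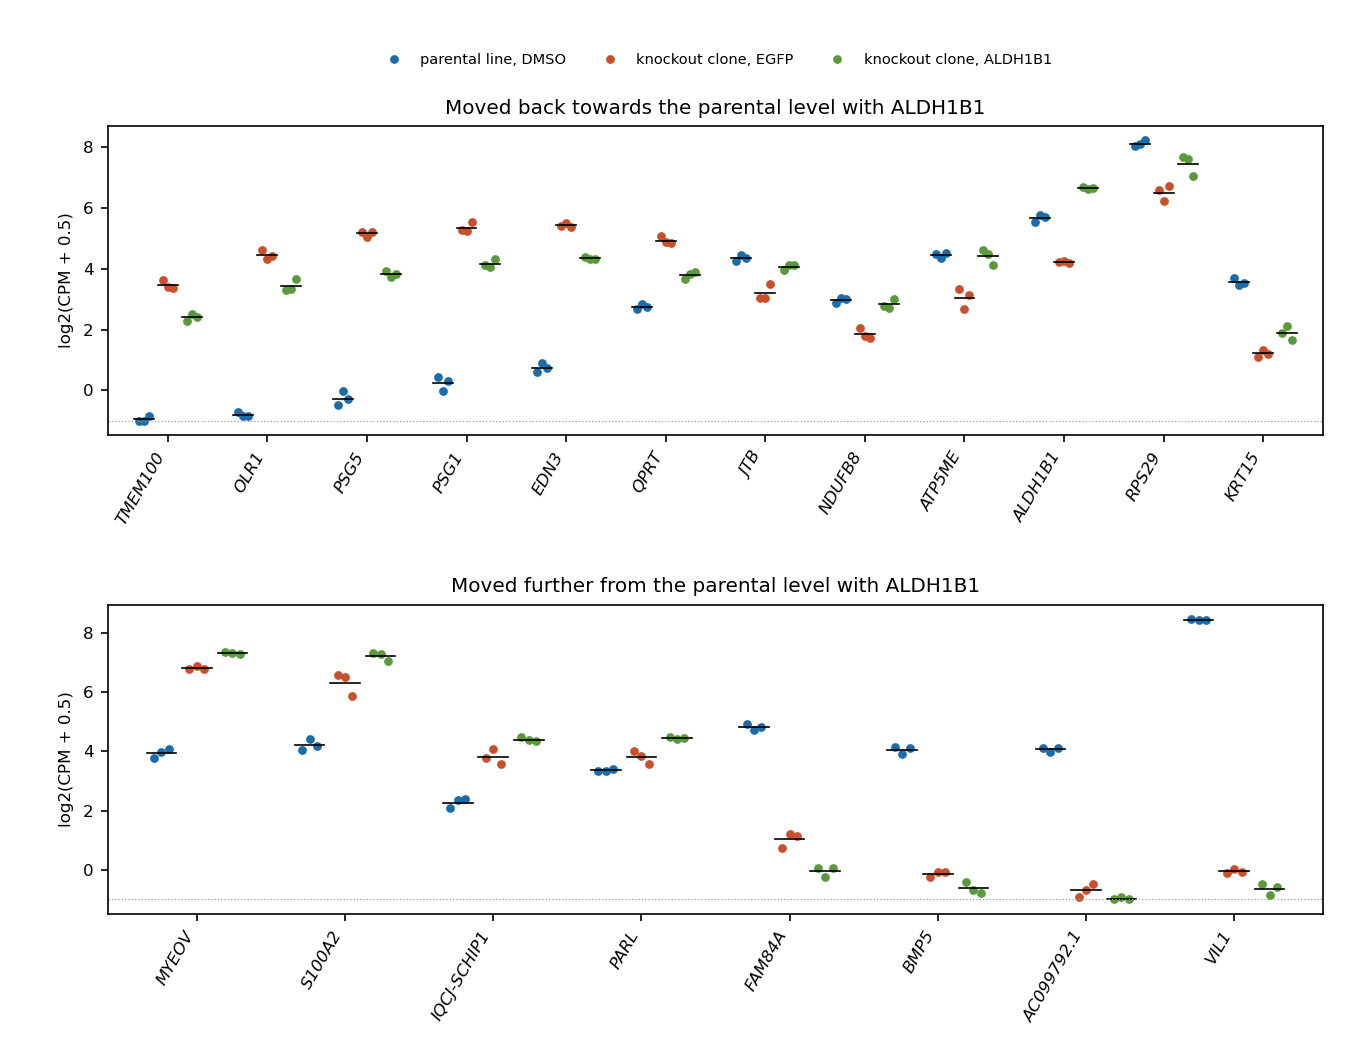
Level of each gene in every library (points) and the group mean (black bars), as log2 of CPM plus 0.5, for the 12 genes that moved back towards the parental level when the clone expressed ALDH1B1 (top) and the 8 that moved further from it (bottom). The dotted line is the value of 0 reads. Raised genes such as PSG5 fall only part of the way (13.6 CPM on average against 0.334 CPM in the parental line), while ATP5ME and NDUFB8 reach their parental values.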

How the data were processed

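RNA selected with oligo(dT) was sequenced from SW480 cells. Tools named in the submitters' processing notes are fastp, STAR and DESeq2, with build hg38. The counting program and strand setting are not stated, so overlapping and antisense genes cannot be told apart. Deposited values used here are raw read counts (whole numbers), as the file headers name them. A further 24 per-sample columns were left aside, and 1 inhibitor column has no replicate number. Genes were joined by ID, and those in 1 table only were not tested.

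Counts of 9 libraries went into 1 edgeR 4.0.16 fit (R 4.3.3, quasi-likelihood, TMM, filterByExpr) with Benjamini-Hochberg adjustment at 0.05. The code was tested on simulated data. A gene moved back when EGFP minus parental and ALDH1B1 minus EGFP were both called with opposite signs, and further when with the same sign. Spans, lengths and shared exons come from GENCODE release 29.

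Genes named by rule are ALDH1B1, VIL1, VIM, the 8 largest rises and 8 largest falls among protein-coding genes of at least 5 CPM, 6 per direction moved back and 4 moved further, 3 per gene list and 5 per direction listed in 1 table only. Some genes the rule names are not reported here. Others were named after their values were seen. The members and the 36 lists were chosen with earlier results of these data known, and no list was tested as a set.

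A comparison of promoter letters between genes off and on in the clone was also made, with limits and motifs chosen after values were seen. Only 33 of 52 and 15 of 28 protein-coding genes had a promoter entry, under the 80% needed, so it is void and its values are not given.

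Alternatives were RLE scaling, no filter, DESeq2 1.42.0, fits of 6 or 12 libraries, a replicate block, unlisted genes as 0, removal of a length trend, and each library left out. The p-values measure the spread between cultures of 1 clone and 1 line.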

Additional observations from a re-analysis of the deposited data

How the results depend on the processing

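The 14243 genes called and the 6810 changed at least 2-fold stayed within a factor of 1.5 under every alternative run, with 13710 to 14354 and 6843 to 7053 when single libraries were left out. Higher and lower calls were 6756 to 7213 and 6863 to 7214. The counts moved back ran from 668 to 1547 and those moved further from 502 to 1285 when single libraries were left out. The lowest values came without an ALDH1B1 or EGFP library, in fits with fewer samples. For the other alternatives they were within a factor of 1.5, at most 1819 and 1562 without both libraries that stood apart. Deviations of same-numbered libraries of different groups had correlations from -0.15 to 0.18, with 1 of 9 over 0.1. Libraries with different numbers ran from -0.21 to 0.23, so no pairing by number was seen, though so few libraries cannot exclude it. With the replicate block 14095 genes were called, 6793 at least 2-fold, 1276 moved back and 1044 further. NDUFB8 reversed to 0.0198 for EGFP minus parental against inhibitor-treated parental cells. The cause was not tested. Over the named genes, 2372 of 2375 recomputed values of EGFP minus parental kept direction and call, and 2245 of 2360 of ALDH1B1 minus EGFP, where 55 lost and 60 gained a call without a change of direction. DESeq2 called 13929 genes and relative log expression scaling shifted the median log2 fold change by 0.02. Depth limits genes under about 0.1 CPM, where a group holds about 10 reads.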
